A study of Rattus norvegicus with 9 samples.

Results

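The osteoclast bone-resorbing machinery is described here through 10 protein-coding genes, chosen by symbol from the 35360 genes of the deposited count table. They encode secreted proteases that break down bone matrix (Ctsk and Mmp9) and a secreted acid phosphatase (Acp5). Others encode the proteins that acidify the resorption space (Tcirg1, Atp6v0d2, Clcn7 and Ostm1). The rest encode the adhesion and signalling proteins of the attached cell (Itgb3 and Src), and the receptor for the hormone that stops resorption (Calcr). RNA came from the middle of femoral fractures in rats. It was sequenced in 9 libraries, 3 from each group. One group had received a gel alone (Gel), another a gel carrying a bisphosphonate abbreviated ALN (ALN gel), and the third a gel with a metal-organic framework of magnesium and ALN (Mg-ALN gel). Every group therefore carried a gel, and both treated groups carried ALN. The study asked whether magnesium ions counter the bone fibrosis that follows ALN, in the setting of osteoporotic fracture repair. The strain, sex and age of the rats, the dose of ALN and the time after fracture were not given in the sources used here.

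Osteoclasts are large cells with many nuclei that form by fusion of precursors of the macrophage lineage. An osteoclast seals off a patch of bone through integrin-based contacts and pumps protons and chloride into the space beneath it. It then secretes proteases that digest the collagen exposed by the acid. Bisphosphonates bind bone mineral and are taken up by osteoclasts during resorption, and those that contain nitrogen block an enzyme of the mevalonate pathway. Fracture callus is normally remodelled by osteoclasts.

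The libraries held 13388689 to 18763270 counts, and mitochondrially encoded genes took between 4.16% and 39.5% of them. Bone matrix genes marked the tissue as labelled, with 10 osteoblast and bone markers summing to at least 16206 CPM (counts scaled for library size, with TMM factors) in every library. Skeletal muscle markers summed to between 8.83 and 10695 CPM, so the muscle content of the pieces differed widely. Values are means ± SD over 3 libraries. These libraries are of bulk tissue, in which fewer osteoclasts and less of an RNA in each osteoclast cannot be told apart.

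All 10 genes had a higher mean with ALN gel than with either other gel. Together they took 2.45%, 2.84% and 2.52% of all counts in the ALN gel libraries. With Gel the shares were 1.87%, 0.51% and 0.293%, and with Mg-ALN gel 0.367%, 1.26% and 1.07%. The lowest ALN gel library thus lay above the highest of the other 6, and the ALN gel libraries were close together while those of the other groups spread over several-fold ranges. Per gene, the highest Gel library stood 1.40 to 15.4 times above the lowest. For ALN gel these ratios were 1.33 to 3.98, and with Mg-ALN gel 1.5 to 19.2.

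**Figure D1:**
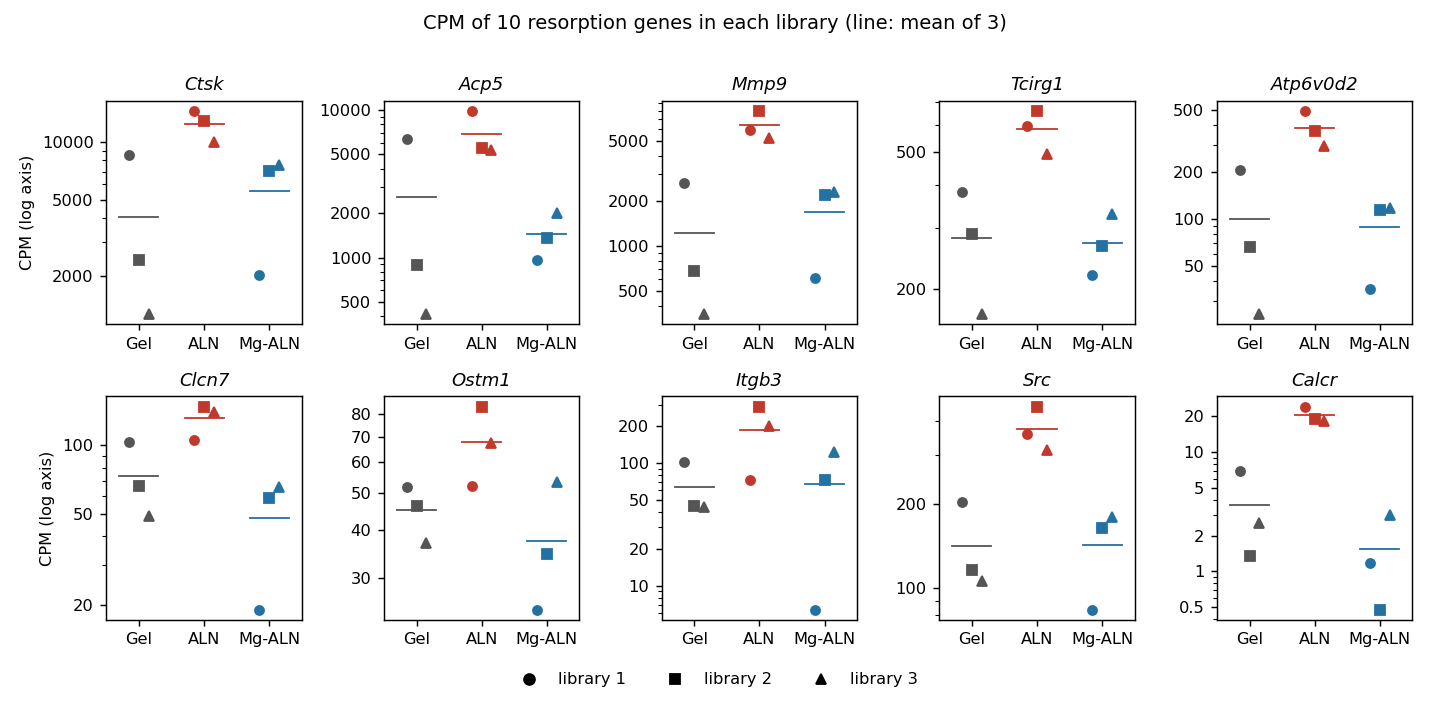
TMM-scaled CPM of each of the 10 genes (log axis) in the 3 libraries of each group, with the library number as the marker shape and the group mean as a line. For Ctsk the ALN gel libraries sit between 10030 and 14522 CPM and the other 6 libraries between 1261 and 8529 CPM.

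Ctsk encodes cathepsin K, the cysteine protease that cleaves type I collagen in the resorption space. The gene (ENSRNOG00000021155) lies on the plus strand of chromosome 2 at 196655469 to 196666446 in the coordinates of the deposited table, whose genome build was not stated. It had 8529, 2416 and 1261 CPM in the Gel libraries 1 to 3. It had 14522, 12792 and 10030 CPM with ALN gel, and 2013, 7086 and 7592 CPM with Mg-ALN gel. All ALN gel libraries lay above all others, and Gel and Mg-ALN gel overlapped. The group means were 4068 ± 3906, 12448 ± 2266 and 5564 ± 3085 CPM. The log2 fold change was 1.61 (SE 0.76) for ALN gel over Gel and −1.16 (SE 0.75) for Mg-ALN gel over ALN gel, neither of which passed edgeR's quasi-likelihood test (Benjamini-Hochberg adjusted p = 0.636 and 0.658). In the libraries of ALN gel, this single gene made up 1.11% to 1.28% of all counts.

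Acp5 encodes tartrate-resistant acid phosphatase, the enzyme stained for in tissue sections to find osteoclasts (ENSRNOG00000046261, chromosome 8, 23142734 to 23148396, minus strand). Its levels were 6394, 888 and 415 CPM with Gel, 9823, 5517 and 5363 CPM with ALN gel, and 959, 1366 and 2017 CPM with Mg-ALN gel. Gel library 1 lay within the range of the ALN gel libraries, while every Mg-ALN gel library lay below every ALN gel library. From ALN gel to Mg-ALN gel the mean went from 6901 ± 2531 to 1447 ± 534 CPM, a log2 fold change of −2.25 (SE 0.91, edgeR adjusted p = 0.513). For ALN gel over Gel it was 1.43 (SE 0.89, edgeR adjusted p = 0.72). Gel library 1 decided the size of that value, which was 3.40 without it.

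Mmp9 encodes a gelatinase that osteoclasts secrete in large amounts (ENSRNOG00000017539, chromosome 3, 161413298 to 161421520, plus strand). It had 2622, 682 and 352 CPM with Gel, 5973, 7958 and 5241 CPM with ALN gel, and 616, 2186 and 2294 CPM with Mg-ALN gel. The lowest ALN gel library lay above the highest library of either other group. The mean was 1219 ± 1226 CPM with Gel and 6391 ± 1406 CPM with ALN gel, with a log2 fold change of 2.39 (SE 0.78, edgeR adjusted p = 0.536). For Mg-ALN gel over ALN gel it was −1.91 (SE 0.77, edgeR adjusted p = 0.511).

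Start regions were searched for short motifs because most of the 10 genes had similar profiles over the libraries. The regions printed, of Ctsk, Acp5 and Clcn7, are those of the genes in which a match was found. Promoter sequences of 300 bases (250 before and 50 after the annotated start) were taken from RefSeq on assembly GRCr8 and were found for 7 of the 10 genes. Atp6v0d2, Mmp9 and Itgb3 had none. Capitals mark matches on either strand to the letters of the E-box of MITF and related factors (CACGTG), of AP-1 (TGACTCA), of the NFAT core (GGAAA) or of the PU.1 core (GAGGAA), with the last pair able to overlap. Acp5 has a pair of annotated starts. The regions are chr2:185747298-185747597 on the plus strand for Ctsk, chr8:28945881-28946180 and chr8:28943880-28944179 on the minus strand for Acp5, and chr10:14656011-14656310 on the plus strand for Clcn7.
Ctsk: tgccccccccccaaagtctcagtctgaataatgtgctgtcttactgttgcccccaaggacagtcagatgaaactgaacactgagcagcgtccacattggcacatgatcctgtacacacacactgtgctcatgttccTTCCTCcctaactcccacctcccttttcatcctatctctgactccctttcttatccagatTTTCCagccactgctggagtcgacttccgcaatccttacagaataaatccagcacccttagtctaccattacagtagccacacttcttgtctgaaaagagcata
Acp5, upstream start: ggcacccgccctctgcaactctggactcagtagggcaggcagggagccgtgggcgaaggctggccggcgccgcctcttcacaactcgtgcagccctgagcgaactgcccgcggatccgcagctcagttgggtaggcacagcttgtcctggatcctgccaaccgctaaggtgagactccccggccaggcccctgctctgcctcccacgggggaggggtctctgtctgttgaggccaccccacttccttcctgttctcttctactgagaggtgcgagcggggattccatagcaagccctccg
Acp5, downstream start: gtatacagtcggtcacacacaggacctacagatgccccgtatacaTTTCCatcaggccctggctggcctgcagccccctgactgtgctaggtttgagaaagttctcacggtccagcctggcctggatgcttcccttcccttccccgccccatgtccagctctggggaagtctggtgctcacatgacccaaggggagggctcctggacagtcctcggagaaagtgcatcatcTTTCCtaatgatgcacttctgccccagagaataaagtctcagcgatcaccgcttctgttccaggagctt
Clcn7: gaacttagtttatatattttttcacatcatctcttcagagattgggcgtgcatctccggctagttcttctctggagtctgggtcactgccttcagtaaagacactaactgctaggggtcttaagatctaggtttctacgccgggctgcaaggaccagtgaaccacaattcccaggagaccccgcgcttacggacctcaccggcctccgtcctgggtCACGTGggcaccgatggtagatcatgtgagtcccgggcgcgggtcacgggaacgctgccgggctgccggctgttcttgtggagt
The Ctsk region held 1 NFAT core at −54 and 1 PU.1 core at −114, counted from the annotated start. The downstream Acp5 region held 2 NFAT cores, at −205 and −19, and the upstream one held none of the 4 motifs. The Clcn7 region held an E-box at −34. None of these letters occurred in the Tcirg1, Ostm1, Src or Calcr regions. In the Src region the 50 bases after the annotated start begin with ATG and read as coding sequence. That region may therefore not lie at the start of transcription, and it is still counted in the shares that follow. An NFAT core was thus present in 2 of 8 promoters (2 of 7 genes), against 62.7% of all 33365 promoters of the table. The PU.1 core was present in 1 of 8 promoters (27.6% of all promoters), the E-box in 1 of 8 (6.43%) and the AP-1 letters in 0 of 8 (4.64%). A match of letters is a description of the window, not evidence of binding.

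Of the acidification genes, Tcirg1 and Atp6v0d2 encode the osteoclast forms of subunits of the vacuolar proton pump. Tcirg1 (ENSRNOG00000017220, chromosome 1, 219127602 to 219139464, minus strand) had 384, 289 and 169 CPM with Gel. It had 597, 659 and 495 CPM with ALN gel and 220, 266 and 331 CPM with Mg-ALN gel. The ALN gel libraries lay above the other 6, and the log2 fold changes were close to equal and opposite, 1.06 (SE 0.32) for ALN gel over Gel and −1.10 (SE 0.32) for Mg-ALN gel over ALN gel. Neither passed over all genes (edgeR adjusted p = 0.528 and 0.496). Atp6v0d2 (ENSRNOG00000006926, chromosome 5, 33843519 to 33892462, minus strand) is also known for its part in the fusion of osteoclast precursors in mice. It had 208, 66.2 and 24.6 CPM with Gel, 495, 367 and 293 CPM with ALN gel, and 35.6, 114 and 118 CPM with Mg-ALN gel. Here too ALN gel lay apart, with log2 fold changes of 1.95 (SE 0.73, edgeR adjusted p = 0.563) against Gel and −2.11 (SE 0.73, edgeR adjusted p = 0.496) from ALN gel to Mg-ALN gel.

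Clcn7 and Ostm1 encode the chloride-proton exchanger of the resorbing membrane and its partner subunit, and loss of either causes osteopetrosis in mice and humans. Clcn7 (ENSRNOG00000016976, chromosome 10, 14492844 to 14516894, plus strand) had 104, 66.7 and 49.3 CPM with Gel, 106, 148 and 140 CPM with ALN gel, and 19.1, 59.1 and 65.6 CPM with Mg-ALN gel. ALN gel library 1 and Gel library 1 were nearly equal, so the separation of ALN gel from Gel was narrow. The log2 fold change was 0.85 (SE 0.45, edgeR adjusted p = 0.68) for ALN gel over Gel and −1.46 (SE 0.45, edgeR adjusted p = 0.496) for Mg-ALN gel over ALN gel. Ostm1 (ENSRNOG00000037647, chromosome 20, 47395014 to 47430284, plus strand) had the smallest differences of the 10 genes in both of these comparisons. Its levels were 51.8, 46.2 and 36.9 CPM with Gel, 51.9, 83.8 and 67.4 CPM with ALN gel, and 24.8, 34.6 and 53.2 CPM with Mg-ALN gel. The lowest ALN gel library lay just above the highest Gel library (51.9 against 51.8 CPM), and the ALN gel range overlapped that of Mg-ALN gel, where the log2 fold changes were 0.59 (SE 0.31) and −0.85 (SE 0.31).

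Itgb3 and Src act in attachment. Itgb3 (ENSRNOG00000048449, chromosome 10, 92667869 to 92783410, plus strand) encodes the β chain of the vitronectin receptor, through which osteoclasts hold on to bone. It had 103, 44.7 and 43.5 CPM with Gel, 72.6, 289 and 200 CPM with ALN gel, and 6.38, 72.8 and 122 CPM with Mg-ALN gel. This was the gene with the widest spread within ALN gel and within Mg-ALN gel, and the groups overlapped in every comparison. Library 1 was the lowest in both of those groups and the highest with Gel. The log2 fold changes were 1.56 (SE 0.88) for ALN gel over Gel and −1.48 (SE 0.88) for Mg-ALN gel over ALN gel. The latter was −2.24 without Mg-ALN gel library 3 and −0.94 without Mg-ALN gel library 1.

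Src (ENSRNOG00000009495, chromosome 3, 153580861 to 153595642, plus strand) encodes the tyrosine kinase that acts downstream of this integrin and without which mouse osteoclasts form no ruffled border. It had 204, 116 and 106 CPM with Gel, 358, 450 and 314 CPM with ALN gel, and 83.6, 165 and 180 CPM with Mg-ALN gel. The ALN gel libraries lay clear of all others. Gel and Mg-ALN gel had nearly the same mean, 142 ± 53.8 and 143 ± 52 CPM, against 374 ± 69.3 CPM with ALN gel. The log2 fold change was 1.40 (SE 0.36, edgeR adjusted p = 0.528) for ALN gel over Gel and −1.39 (SE 0.36, edgeR adjusted p = 0.496) for Mg-ALN gel over ALN gel. DESeq2 called both, with adjusted p-values of 0.0396 and 0.0333.

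Calcr encodes the calcitonin receptor, which marks mature osteoclasts and through which calcitonin stops resorption (ENSRNOG00000010053, chromosome 4, 28627442 to 28702559, minus strand). It was the least abundant of the 10 genes in FPKM. Counts were 98, 24 and 41 with Gel, 312, 305 and 300 with ALN gel, and 15, 8 and 47 with Mg-ALN gel. On the CPM scale these were 6.98, 1.35 and 2.57, then 24.2, 19.1 and 18.2, then 1.18, 0.477 and 2.99. The lowest ALN gel library lay far above the highest of the others, 18.2 against 6.98 CPM. The mean went from 3.63 ± 2.96 CPM with Gel to 20.5 ± 3.22 CPM with ALN gel, a 5.66-fold higher level by edgeR (log2 fold change 2.5, SE 0.73, adjusted p = 0.528). From ALN gel to Mg-ALN gel, at 1.55 ± 1.29 CPM, edgeR gave a 13.2-fold lower level (log2 fold change −3.72, SE 0.78, adjusted p = 0.454). DESeq2 called the latter with an adjusted p of 0.000319. The log2 value was −4.64 without Mg-ALN gel library 3 and −3.25 without Mg-ALN gel library 2, and that for ALN gel over Gel was 3.38 without Gel library 1. Of the 15460 genes tested, Calcr ranked at place 31 by edgeR p-value for Mg-ALN gel over ALN gel.

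**Figure D2:**
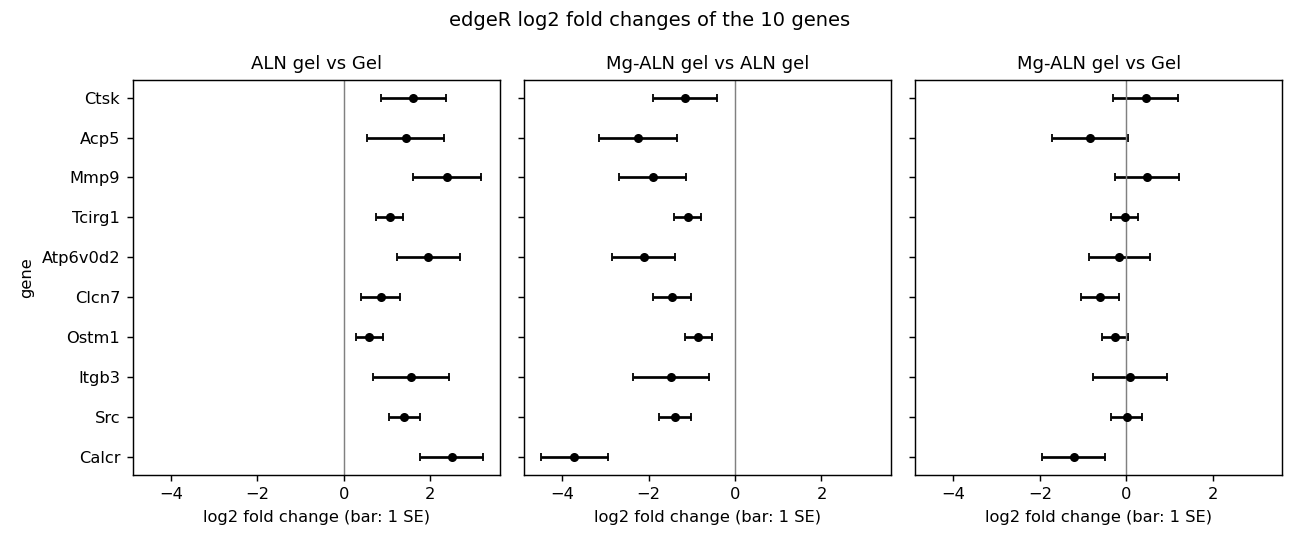
edgeR log2 fold changes of the 10 genes in the 3 comparisons, with bars of 1 SE. All 10 values are above 0 for ALN gel over Gel and below 0 for Mg-ALN gel over ALN gel, which share the ALN gel libraries, and they lie between −1.22 and 0.48 for Mg-ALN gel over Gel.

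Read against the whole table, edgeR called 0 of the 10 genes for ALN gel over Gel at an adjusted p under 0.05, where it called 0% of all 15460 genes. At an unadjusted p under 0.05 it gave 5 of 10 as higher (Atp6v0d2, Calcr, Mmp9, Src and Tcirg1), against 5.78% of all genes. DESeq2 called 1 of the 9 genes for which it gave an adjusted p as higher (0.735% of all genes), and limma-voom with quality weights called 4 of 10 (Atp6v0d2, Calcr, Mmp9 and Src, against 1.60%). In 8 of 10 genes the ALN gel libraries lay wholly above the Gel libraries, against 11.1% of all genes, the exceptions being Acp5 and Itgb3. All 10 log2 fold changes were positive, as were 49.8% over all genes. Their median was 1.49, and over all genes 0.00. It was 2.42 without Gel library 1, the library of that group with the highest level of each of the 10 genes, and single values then reached 2.76 for Ctsk, 3.63 for Mmp9 and 3.08 for Atp6v0d2.

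For Mg-ALN gel over ALN gel, edgeR again called 0 of 10, against 0% of all genes. At an unadjusted p under 0.05, 8 of 10 were lower (all but Ctsk and Itgb3), against 5.43% of all genes. DESeq2 called Calcr and Src, 2 of 9, as lower (0.836% of all genes), while limma-voom with quality weights called 0 of 10 (0% of all genes as lower). The Mg-ALN gel libraries lay wholly below the ALN gel libraries in 8 of 10 genes (all but Ostm1 and Itgb3), against 9.77% of all genes. All 10 log2 fold changes were negative, as were 53.6% over all genes. Their median was −1.47, and −0.04 over all genes. The 10 genes were measured in the same libraries and are not independent of each other, and both comparisons share the ALN gel libraries.

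For Mg-ALN gel over Gel, the comparison that does not involve the ALN gel libraries, the values lay on both sides of 0. There were 4 genes with positive and 6 with negative log2 fold changes, with a median of −0.10 (47.7% and 52.2% of all genes). No gene had groups that lay apart (0 of 10 wholly above and 0 of 10 wholly below, against 9.76% and 8.56% of all genes). edgeR called 0 of 10 (0% of all genes), also at an unadjusted p under 0.05 (5.43% of all genes higher and 3.88% lower). DESeq2 called 0 of 9 (0.156% of all genes higher and 0.176% lower), and 0 of 10 were called by limma-voom with quality weights (0%). The values farthest from 0 were −1.22 (SE 0.72) for Calcr and −0.83 (SE 0.88) for Acp5. The value for Acp5 turned to 1.15 without Gel library 1. That for Calcr was −0.34 without Gel library 1 and −2.14 without Mg-ALN gel library 3. Ctsk, at 0.45, and Mmp9, at 0.48, had 1.60 and 1.71 without Gel library 1, and 0.02 and 0.03 without Gel library 3, and the median turned to 0.49 without Gel library 1 and to 0.15 without Mg-ALN gel library 1.

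Tested for any difference among the 3 groups, edgeR called 0 of 10 (0% of all genes), with an unadjusted p under 0.05 in 6 of 10 against 9.29% of all genes. By an exact permutation test over the 280 ways to divide the libraries into 3 groups of 3, whose smallest possible p is 0.00357, the p was 0.0143 for Calcr, 0.0321 for Clcn7, and 0.0393 for both Src and Tcirg1, unadjusted for the number of genes. These 4 of 10 compare with 9.48% of all genes under 0.05. For the other 6 genes the permutation p was between 0.0571 (Mmp9) and 0.289 (Itgb3). DESeq2 called Calcr, Src and Tcirg1 (3 of 9, against 1.71% of all genes), and limma-voom with quality weights called Calcr (1 of 10, against 0.181%). In 7 of 10 genes all ALN gel libraries lay above all 6 others, which held for 3.51% of all genes.

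**Figure D3:**
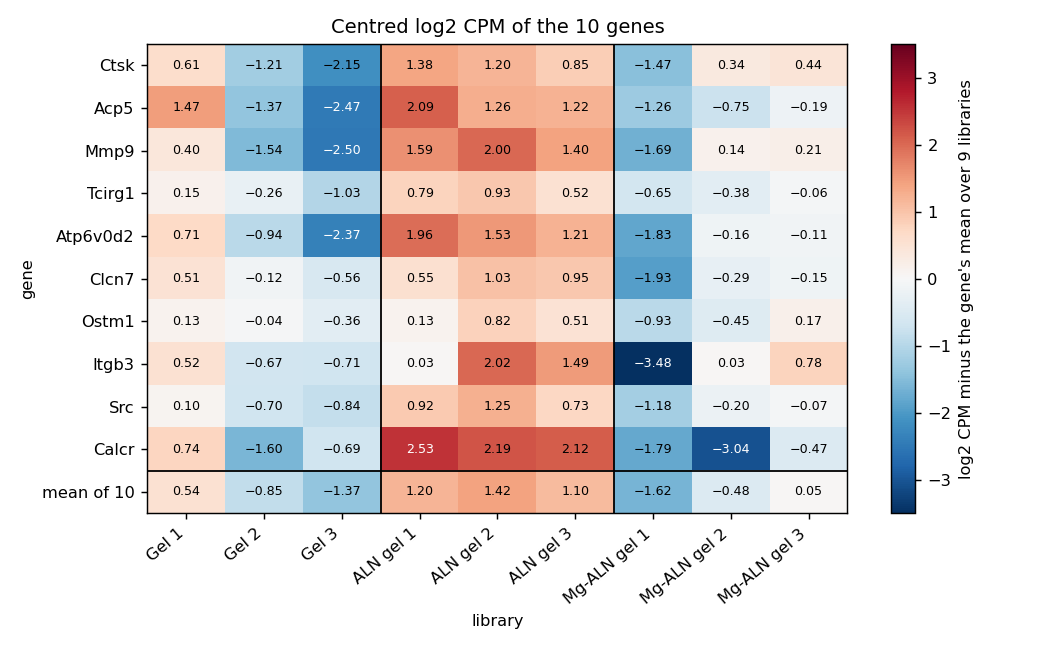
log2 CPM of each gene minus its own mean over the 9 libraries, with the mean of the 10 genes in the bottom row. The bottom row is 1.2, 1.42 and 1.10 with ALN gel, 0.54, −0.85 and −1.37 with Gel, and −1.62, −0.48 and 0.05 with Mg-ALN gel.

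Levels can be compared between genes only per length, for which the deposited FPKM values were used. Ctsk was the highest in every library, with 2831 ± 2678 FPKM with Gel, 8486 ± 1498 with ALN gel and 3842 ± 2098 with Mg-ALN gel. Acp5 and then Mmp9 followed in 9 of 9 libraries. Mmp9 above Atp6v0d2, Tcirg1 above Src, Src above Itgb3 and Clcn7 above Calcr were likewise in that order in all libraries, from 1963 ± 457 FPKM for Mmp9 to 5.61 ± 0.812 FPKM for Calcr with ALN gel. Neighbours changed places elsewhere. Atp6v0d2 exceeded Tcirg1 in 4 of 9 libraries, namely the 3 of ALN gel and Gel library 1, and their overall means of 133 and 132 FPKM did not separate them. In Gel library 3 Atp6v0d2, at 17.7 FPKM, was also below Src (30.1), Ostm1 (25.7), Itgb3 (18.2) and Clcn7 (18). Itgb3 exceeded Ostm1 in 5 of 9 libraries and Ostm1 exceeded Clcn7 in 6 of 9.

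Apart from that of Calcr, the profiles over the libraries were alike (see the plot of centred log2 CPM). The root mean square difference of a gene from the mean profile of all 10 was smallest for Src (0.34) and Ctsk (0.44) and largest for Itgb3 (0.85) and Calcr (1.12), on the log2 scale. For comparison, the median over 10586 other protein-coding genes with a mean of at least 5 CPM was 1.12. Calcr was thus no closer to the mean profile than the median gene. Each of the 10 genes contributes to the mean profile, so their own values are lowered by construction. Calcr stood apart mainly through Mg-ALN gel library 2, where it was −3.04 while the mean profile was −0.48. Itgb3 stood apart through Mg-ALN gel library 1, at −3.48 against −1.62.

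Among genes outside the 10, those closest to the mean profile were Lat2 (0.15), Slc4a2 (0.19), Rassf4 (0.20), Cd84 (0.23), Gusb (0.23), Slc37a2 (0.24), Naa80 (0.24), Snx10 (0.26), Slc6a17 (0.26) and Ptpn22 (0.27). They were picked for this likeness over 9 libraries, so their group differences are descriptions only. Slc4a2 encodes the anion exchanger that supplies the osteoclast with chloride. It had 311, 109 and 97.2 CPM with Gel, 405, 555 and 452 with ALN gel, and 76.4, 194 and 189 with Mg-ALN gel. Snx10, a sorting nexin mutated in a human form of osteopetrosis, had 141, 78.9 and 31.4 CPM, then 252, 247 and 190, then 31.8, 98.2 and 96.8. Gusb encodes a lysosomal glucuronidase and had 332, 127 and 100 CPM, then 811, 649 and 519, then 112, 221 and 283. Slc4a2 and Snx10 are also on the list of acid secretion genes. In each of these 3 genes the ALN gel libraries lay above all others.

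The listed relatives of the 10 genes mostly had the opposite sign with ALN gel. Of 16 relatives listed, 15 were tested. Of these, 3 had positive and 12 negative log2 fold changes for ALN gel over Gel (50.2% of all genes were negative), with a median of −0.28, and edgeR called 0 (2 were lower at an unadjusted p under 0.05, against 2.42% of all genes, and DESeq2 and limma-voom called 0). None (0 of 15) had ALN gel libraries wholly above Gel, against 11.1% of all genes, and 1 (Clcn6) had them wholly below, against 5.03%. The housekeeping pump subunit Atp6v0d1 had 106, 142 and 122 CPM with Gel, 63.7, 132 and 97.1 with ALN gel, and 111, 112 and 115 with Mg-ALN gel, with a log2 fold change of −0.33 (SE 0.27) where that of Atp6v0d2 was 1.95. Atp6v0a1, the relative of Tcirg1, had −1.01 (SE 0.44), and Fyn, a kinase of the Src family, −0.24 (SE 0.28). Atp6v0d1 and Atp6v0a1 are also on the list of acid secretion genes. The other pump subunits on that list had positive values for ALN gel over Gel. Cathepsins L, B and S (Ctsl, Ctsb and Ctss), lysosomal relatives of cathepsin K, had −1.86 (SE 0.76), −0.88 (SE 0.57) and −0.57 (SE 0.76). The gelatinase Mmp2, which stromal cells secrete, had −0.99 (SE 0.53).

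**Figure D4:**
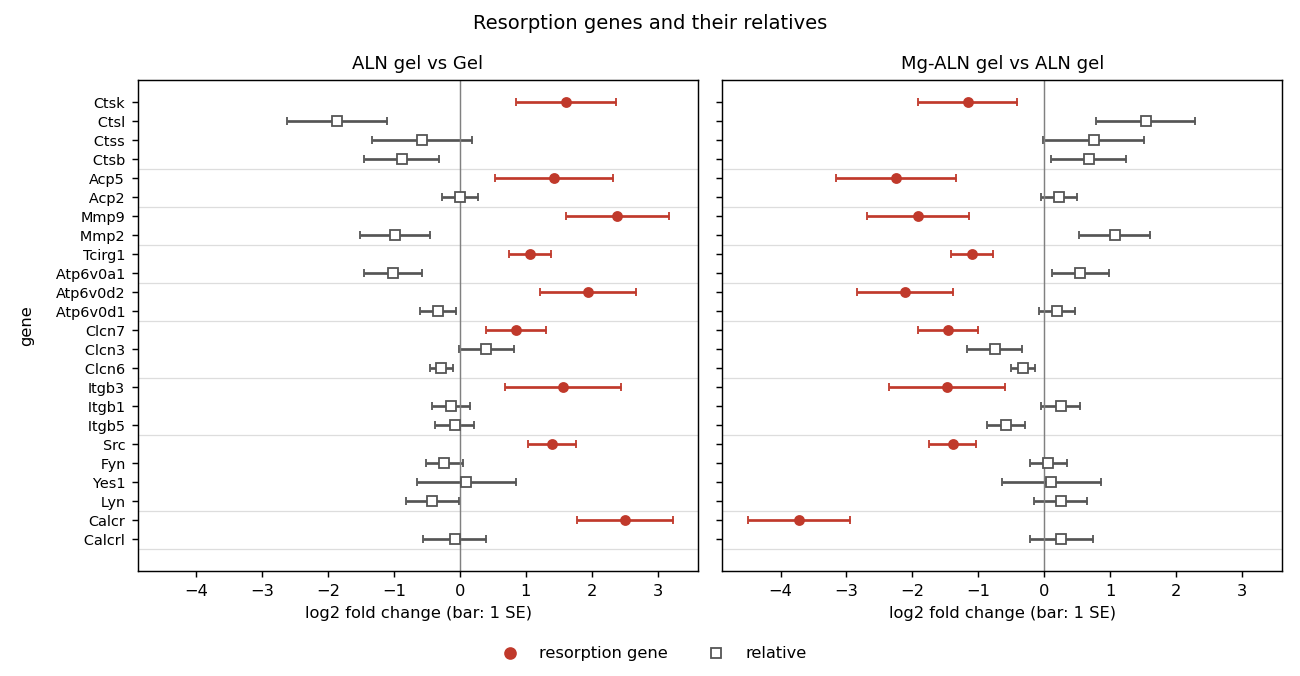
edgeR log2 fold changes with bars of 1 SE for 9 resorption genes (filled circles) and, under each, its listed relatives (open squares). For ALN gel over Gel the resorption genes lie between 0.85 and 2.5 and the relatives between −1.86 and 0.40, and for Mg-ALN gel over ALN gel between −3.72 and −1.10 and between −0.75 and 1.54.

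Ratios of FPKM within a library do not depend on the scaling between libraries. Mmp9 over Ctsk was 0.138, 0.127 and 0.126 with Gel and 0.137, 0.139 and 0.136 with Mg-ALN gel, although the level of each gene varied several-fold within both groups. With ALN gel it was 0.185, 0.280 and 0.235, above all 6 others. Src over Fyn was 1.24, 1.07 and 1.14 with Gel, 3.30, 4.73 and 2.95 with ALN gel, and 1.07, 1.54 and 1.31 with Mg-ALN gel. ALN gel again lay apart. Tcirg1 over Atp6v0a1 was 14.2, 3.5 and 2.13 with Gel, 32.7, 14.9 and 15.8 with ALN gel, and 5.34, 5.77 and 6.68 with Mg-ALN gel, with Gel library 1 close to the lower ALN gel libraries. Acp5 over Ctsk did not set ALN gel apart, at 0.685, 0.336 and 0.301, then 0.618, 0.394 and 0.489, then 0.435, 0.176 and 0.243. Of the other pairs computed, Atp6v0d2 over Atp6v0d1 and Mmp9 over Mmp2 set ALN gel apart. Calcr over Ctsk, Ctsk over Ctsl, Itgb3 over Itgb1, Itgb3 over Itgav, Clcn7 over Ostm1 and Clcn7 over Clcn3 did not. For Itgb3 over Itgb1, for example, Gel library 1 had 0.283 and ALN gel library 1 had 0.26. None of these ratios was tested.

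**Figure D5:**
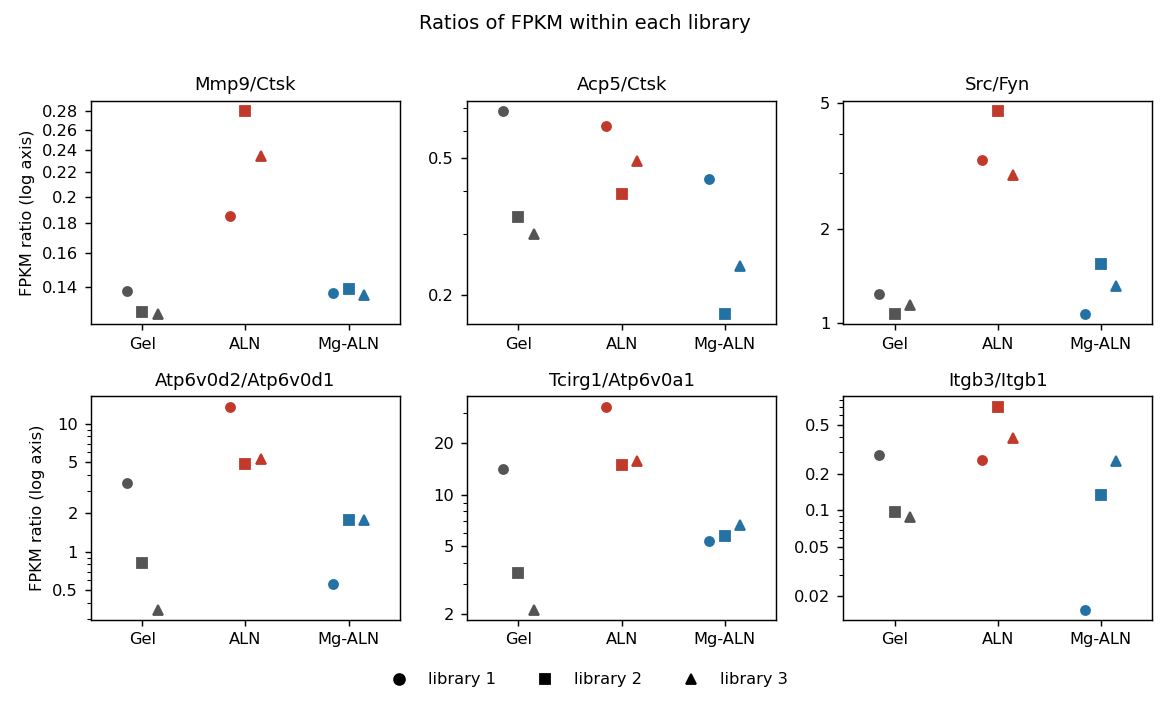
Ratio of the FPKM values of paired genes (log axis) in each library, with the library number as the marker shape. Mmp9/Ctsk lies between 0.126 and 0.139 in the Gel and Mg-ALN gel libraries and between 0.185 and 0.280 with ALN gel.

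Other genes of the resorption pathway were counted by function, from lists written for this purpose with earlier results of these data known. edgeR called 0 genes of these lists at an adjusted p under 0.05 in any comparison. Of 21 further genes of acid secretion, 18 had ALN gel libraries wholly above Gel (against 11.1% of all genes), and the median log2 fold change was 1.13. At an unadjusted p under 0.05 edgeR gave 16 as higher (5.78% of all genes) and 1 as lower (2.42%). DESeq2 called 5 as higher (0.735% of all genes) and limma-voom with quality weights 9 (1.6%). The exceptions, named after their values were seen, were the pump subunits Atp6v0a1 and Atp6v0d1 and the carbonic anhydrase Car2 (1.79, SE 0.81). For Mg-ALN gel over ALN gel, 14 of 21 lay wholly below (9.77% of all genes), with a median of −0.84, and 12 were lower at an unadjusted p under 0.05 (5.43% of all genes), while DESeq2 and limma-voom called 0. The peripheral pump subunit Atp6v1d had 157, 124 and 81.6 CPM with Gel, 398, 300 and 218 with ALN gel, and 141, 144 and 148 with Mg-ALN gel (log2 fold change 1.34, SE 0.30, against Gel, and edgeR adjusted p = 0.505). Atp6v1c1 and Atp6v1h had 1.23 (SE 0.29) and 1.34 (SE 0.32), and Atp6v0e1 of the membrane sector 1.2 (SE 0.29). DESeq2 and limma-voom with quality weights both called these 4 subunits for ALN gel over Gel.

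Genes of osteoclast formation showed the pattern in part. Of 20 listed, 19 were tested, and 6 lay wholly above Gel with ALN gel while 11 lay wholly below ALN gel with Mg-ALN gel, with medians of 0.70 and −1. Over all genes these shares were 11.1% and 9.77%. For ALN gel over Gel 14 log2 fold changes were positive and 5 negative. For Mg-ALN gel over ALN gel 4 were positive and 15 negative. At an unadjusted p under 0.05 edgeR gave 6 as higher (5.78% of all genes) and 10 as lower (5.43%), respectively. DESeq2 called 0 as higher (0.735%) and 3 as lower (0.836%), and limma-voom with quality weights 4 (1.6%) and 0 (0%). Tnfrsf11a, the receptor for RANKL, had 50.7, 23.9 and 16.3 CPM with Gel, 86.1, 95.9 and 71.5 with ALN gel, and 24.3, 31.5 and 46.5 with Mg-ALN gel. Mitf, a transcription factor of osteoclast genes, had 37.9, 36.4 and 27.5 CPM, then 72.5, 78.6 and 58.0, then 20.0, 33.1 and 41.5. Both were highest in the ALN gel libraries, with log2 fold changes against Gel of 1.48 (SE 0.42) and 1.04 (SE 0.28). The receptor Csf1r, which macrophages carry as well, had 0.68 (SE 0.22) for ALN gel over Gel and −0.83 (SE 0.22) for Mg-ALN gel over ALN gel. The signalling adaptor Traf6 had 0.60 (SE 0.34) and −1.39 (SE 0.35). These 4 genes had the smallest p of the list for any difference among the 3 groups. The 5 with negative values for ALN gel over Gel were Fos, Trem2, Nfkb2, Fcer1g and Tfec, the lowest being −0.94 (SE 0.95) for Fos. All of them but Tfec were positive for Mg-ALN gel over ALN gel, the highest being 1.29 (SE 0.96) for Fos.

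Further genes of attachment and of matrix breakdown had values on both sides of 0. Of 19 attachment genes, 0 lay wholly above and 0 wholly below Gel with ALN gel, with a median of −0.10, and 1 lay wholly below ALN gel with Mg-ALN gel. Over all genes 11.1% lay wholly above and 5.03% wholly below Gel with ALN gel, and 9.77% wholly below ALN gel with Mg-ALN gel. With Mg-ALN gel 0 attachment genes lay wholly above Gel (9.76% of all genes) and 4 wholly below (8.56%). For ALN gel over Gel 1 was higher and 1 lower at an unadjusted p under 0.05 (5.78% and 2.42% of all genes), and DESeq2 and limma-voom called 0. The gene wholly below was Dock5, an activator of Rac in the osteoclast (16.0, 17.9 and 21.8 CPM with Gel, 18.7, 39.3 and 42.0 with ALN gel, and 2.84, 16.7 and 14.7 with Mg-ALN gel). The kinase Syk had 0.15 (SE 0.29) for ALN gel over Gel, Rac2, a GTPase of blood cells, 1.08 (SE 0.47), and Pstpip2, a cytoskeletal adaptor of myeloid cells, −1.90 (SE 0.79). Of 13 proteases and inhibitors, 1 lay wholly above Gel with ALN gel and 1 wholly below, with a median of −0.57, counts near the 11.1% and 5.03% of all genes. At an unadjusted p under 0.05, 2 were lower (2.42% of all genes). The one above was the collagenase Mmp13, which is best known from hypertrophic cartilage and bone cells, with 2445, 4222 and 2700 CPM with Gel, 9188, 4689 and 4393 with ALN gel, and 1963, 2231 and 4179 with Mg-ALN gel. The one below was Timp1, an inhibitor of matrix metalloproteases, with 362, 1063 and 583 CPM with Gel, 183, 273 and 285 with ALN gel, and 958, 1115 and 694 with Mg-ALN gel. Timp1 thus ran opposite to Mmp9, with a log2 fold change of −1.44 (SE 0.41) for ALN gel over Gel and 1.90 (SE 0.42) for Mg-ALN gel over ALN gel. DESeq2 called the latter, among 184 genes called in that comparison over the whole table. There 2 of the 13 lay wholly above and 2 wholly below ALN gel (9.77% of all genes lay wholly below). At an unadjusted p under 0.05 edgeR gave 1 as higher and 1 as lower (5.43% of all genes were lower).

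Of 8 inhibitors and ligands of osteoclast formation, 0 lay wholly above or below Gel with ALN gel (11.1% and 5.03% of all genes), with a median of −0.71, and DESeq2 and limma-voom called 0. Tnfrsf11b, the decoy receptor for RANKL, had 8.83, 16.8 and 24.2 CPM, then 5.74, 5.77 and 14.5, then 24.2, 13.2 and 7.43. Bcl6, a repressor of osteoclast genes, had −0.86 (SE 0.39) for ALN gel over Gel, and the growth factor Csf1 0.16 (SE 0.25). The groups overlapped for each of these 3 genes in that comparison. At an unadjusted p under 0.05 edgeR gave 0 of the 8 as higher (5.78% of all genes) and 1 as lower (2.42%). For Mg-ALN gel over ALN gel 5 values were positive and 3 negative, with a median of 0.25. There Bcl6 lay wholly above ALN gel (0.79, SE 0.39) and Csf1 wholly below (−0.56, SE 0.25). Over all genes 9.77% lay wholly below.

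Markers of other cells were set beside these values. Of 12 macrophage markers 10 were tested, with 4 positive and 6 negative log2 fold changes for ALN gel over Gel, and their summed levels overlapped, at 401 to 1232 CPM with Gel, 542 to 946 with ALN gel and 387 to 1741 with Mg-ALN gel. Marco was at 0 in all groups. For the 10 osteoblast and bone markers there were 3 positive and 7 negative values for ALN gel over Gel (median −0.62), and none was at 0. For Mg-ALN gel over Gel all 10 were negative (median −1.06). Their sums were 40854 to 104824 CPM with Gel, 16206 to 31338 with ALN gel and 28676 to 36117 with Mg-ALN gel. The sums of both ALN gel and Mg-ALN gel thus lay wholly below those of Gel. Mitochondrially encoded genes took 17.5%, 5.4% and 4.16% of counts with Gel, 39.5%, 15.6% and 7.61% with ALN gel, and 11.2%, 10.6% and 31.6% with Mg-ALN gel. With that share as a covariate the median over the 10 resorption genes was 1.28 for ALN gel over Gel and −1.54 for Mg-ALN gel over ALN gel. Of 9 erythroid markers tested, all 9 were positive for ALN gel over Gel and all 9 negative for Mg-ALN gel over ALN gel, the same signs as the 10 resorption genes. Their sums overlapped, at 467 to 6125 CPM with Gel, 1054 to 8771 with ALN gel and 214 to 6351 with Mg-ALN gel. Sums of cartilage markers (123 to 867, 132 to 1046 and 114 to 186 CPM), fibroblast markers (12317 to 25213, 3133 to 25764 and 20955 to 30993 CPM) and muscle markers (79.4 to 10695, 75.3 to 2642 and 8.83 to 266 CPM) overlapped between all groups. Negative values for Mg-ALN gel over ALN gel were found in 10 of 10 muscle markers (median −3.27) and 8 of 10 cartilage markers (median −2.43). They were also found in 7 of 10 osteoblast and bone markers (median −0.64). This is the sign of the 10 resorption genes. Positive values were found in 7 of 8 fibroblast markers (median 0.89) and 6 of 10 macrophage markers (median 0.09). The 10 neutrophil markers summed to 143 to 1257 CPM with Gel, 94.6 to 563 with ALN gel and 696 to 8482 with Mg-ALN gel, which lay wholly above ALN gel. Of the 9 tested, 7 were positive in that comparison (median 1.71), opposite to the resorption genes. For ALN gel over Gel 5 of the 9 were positive and 4 negative, with a median of 1.52, the sign of the resorption genes. The part of these cell types in the result was not tested. Mg-ALN gel library 1, lowest of its group for 9 of the 10 genes, also had the highest sum of 10 neutrophil markers, 8482 CPM against 94.6 to 2171 CPM in the others (Ltf was at 0 with ALN gel and Mg-ALN gel), and the part of this in its values was not tested.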

How the data were processed

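The read counts per gene were deposited by the authors as whole numbers with no normalization. The deposited FPKM values matched, for counts over 100, counts per gene length over a library constant of 0.804 to 1.19 times the library total, so they already hold a scaling between libraries. Per the submitters' processing notes, the tools were HISAT2 2.0.5, featureCounts 1.5.0-p3, StringTie 1.3.3b, edgeR 3.22.5, DESeq2 1.20.0 and fastp, in roles that are not given. The labels do not mention strand marking. None of the 10 genes overlapped a gene with any counts. Itgb3 overlapped a protein-coding gene, and Calcr the microRNA genes Mir653 and Mir489, all on the same strand and with 0 counts. Whether reads shared with these genes went uncounted was not tested.

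Groups came from the sample titles. The members and lists were chosen with earlier results of these data known. All 9 libraries entered 1 quasi-likelihood fit (edgeR 4.0.16, R 4.3.3) after filterByExpr (15460 genes, all 10 members among them) and TMM scaling, with Benjamini-Hochberg adjustment over all genes and a threshold of 0.05. Standard errors were taken as the size of the log2 fold change over √F. log2 CPM had a prior count of 0.5. DESeq2 1.42.0 and limma 3.58.1 (voom with quality weights, or log2 of FPKM plus 0.1 or 1) were alternatives, as were other scalings and filters, covariates, and leaving libraries out. The fit was also run on simulated counts with a fixed spread and independent genes. That setting is simpler than these data, so the run does not measure how the fit performs on them. Chi-square over degrees of freedom was at least 72.3 for every pair of libraries, so all were kept as replicates. Nothing says that they are separate animals, and the spread behind the p-values, which is that of these samples, may be technical.

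The replicate numbers of the titles met the criterion for pairing (every same-number correlation of deviations over 0.1) in ALN gel against Gel, with r = 0.341, 0.419 and 0.226, and not in the other comparisons. These are correlations across genes. Genes were named by rule: the 10 members, the 4 genes of each pathway list with the smallest joint p, the relatives, and the 10 genes nearest to the mean profile. One gene that this rule names is not reported here. Of 169 list entries, 5 did not match by symbol. Protein sequences were not used here.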

Additional observations from a re-analysis of the deposited data

How the results depend on the processing

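For ALN gel over Gel and for Mg-ALN gel over ALN gel the direction of each of the 10 genes was the same under every alternative run. The number of them called was 0 by edgeR under every scaling, filter, covariate and left-out library and with limma on FPKM. By DESeq2 it was 1 for ALN gel over Gel, 2 for Mg-ALN gel over ALN gel and 3 for any difference among the groups, and by limma-voom with quality weights 4, 0 and 1. Over all genes edgeR called 0 in each comparison, while DESeq2 called 133 for ALN gel over Gel, 184 for Mg-ALN gel over ALN gel, 51 for Mg-ALN gel over Gel and 247 for any difference, and limma-voom with quality weights 263, 2, 0 and 28. Without ALN gel library 3 edgeR called 1 gene for ALN gel over Gel and 1 for any difference.

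The median log2 fold change over the 10 genes for ALN gel over Gel was 1.17 to 2.42 with 1 library left out, lowest without Gel library 3 and highest without Gel library 1. It was 2.37 with quality weights, which were lowest for library 1 of each group. Without the 3 libraries numbered 1, an alternative chosen after seeing the data, it was 2.5, with 10 of 10 positive and 3 genes called over the whole table. For Mg-ALN gel over ALN gel the median was −1.97 to −1.10 with 1 library left out.

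For Mg-ALN gel over Gel 7 of the 10 genes changed sign under at least 1 alternative, among them Acp5 (−0.83) and Clcn7 (−0.61). The median was −0.51 to 0.49 with 1 library left out, and the ranges were −1.33 to 1.15 for Acp5, −0.32 to 0.25 for Tcirg1, −0.63 to 0.97 for Atp6v0d2, −0.68 to 0.62 for Itgb3 and −0.19 to 0.36 for Src. Quality weights gave a median of 0.55, with 0.99 for Acp5, 0.28 for Tcirg1 and 1.09 for Atp6v0d2. With the libraries numbered 1 left out the median was 0.86 with 9 of 10 positive, and Acp5 had 1.34, Tcirg1 0.34, Atp6v0d2 1.31, Clcn7 0.07 and Ostm1 0.04. The value for Src, 0.01, was 0.00 with RLE or upper quartile scaling and with DESeq2 (each just below 0), −0.01 without mitochondrial genes, −0.02 with no filter, with either FPKM pseudocount and with only the groups compared, and −0.13 with mitochondrial share in the model, where Itgb3 had −0.13. On FPKM with a pseudocount of 0.1 Acp5 had 0.04, Atp6v0d2 0.15 and Itgb3 −0.61, and with 1 they had 0.04, 0.14 and −0.50. The cause was not tested.

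With the replicate number as a block, edgeR called 0 of the 10 genes in each comparison, so the pairing changed no call. The block gave medians of 1.59, −1.57 and, reversed for Mg-ALN gel over Gel, 0.01, where Acp5 had 0.00, Tcirg1 0.01, Atp6v0d2 0.25 and Itgb3 −0.52. With 3 libraries a group the common biological coefficient of variation was 51.4%, which limits what can be called, and Calcr rests on as few as 8 counts in a library.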

Other observations

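The fusion genes of the osteoclast precursor differed in how well they were measured. Ocstamp had 463, 133 and 88 reads counted with Gel, 340, 730 and 494 with ALN gel, and 24, 304 and 314 with Mg-ALN gel. Dcstamp, which encodes the related fusion protein, had 1, 0 and 2 counts with ALN gel and 0 in each of the other 6 libraries, where a count of 0 allows up to 3 counts per library. Dcstamp was left out by the filter and was named here after its values were seen. Siglec15, a surface receptor of osteoclast precursors, and Ckb, the brain-type creatine kinase that osteoclasts also make, gave 1.92 (SE 0.88) and 1.63 (SE 0.64) as log2 fold changes for ALN gel over Gel, and −2.14 (SE 0.89) and −1.58 (SE 0.64) for Mg-ALN gel over ALN gel. Neither passed edgeR's test over all genes, and both were named after their values were seen.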
